A study of Mus musculus with 6 samples.

Results

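Proliferative ECs are the endothelial cells (ECs) that the deposited annotation of this Drop-seq series sets apart as its dividing subtype, and they were taken here by that label alone. They were 1162 of 8944 cells, 12.99% of all cells and 19.61% of the 5925 ECs. The other ECs were 1428 Tip ECs and 3335 Structural ECs, the latter carrying the plain label ECs in the annotation. The design text of the study gives 5378 ECs in all.

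The cells came from retinas of mouse pups at postnatal day 14 of oxygen-induced retinopathy (OIR), a model in which hyperoxia removes retinal capillaries and the return to room air leaves an ischemic retina that grows new vessels. The 3 control replicates were eNOS+/+ mice (C57BL/6 in the labels, C57BL/6J in the study's methods) and the other 3 were eNOS-/- mice, which lack the endothelial nitric oxide synthase throughout the body. All 6 replicates went through OIR, each pooled 3 to 5 retinas, and each was enriched for ECs with magnetic beads against CD31. Droplet libraries count unique molecular identifiers (UMIs), 1 per captured transcript, and the counts of a replicate's Proliferative ECs were summed before any comparison. The level of a gene is given as its UMIs per 1000000 UMIs of such a sum (CPM).

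A growing vessel front is built by migrating tip cells that lead each sprout and by the cells behind them, which divide to lengthen it. A dividing cell first licenses and copies its DNA under cyclins D and E, and then condenses its chromosomes, attaches them to a spindle through the kinetochores and separates them under cyclins A and B with the kinase Cdk1. Transcripts of the second group build up late in the cycle and are degraded or shut off after division, so that their abundance marks cells in G2 and mitosis.

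The 3 eNOS+/+ replicates held 117, 141 and 151 Proliferative ECs, and the 3 eNOS-/- replicates held 312, 406 and 35. Their summed UMIs ran from 78192 in eNOS-/- replicate 3 to 668540 in eNOS-/- replicate 1. The median cell had 963.5 UMIs, against 1007 in Tip ECs and 491 in Structural ECs. The cell barcodes of 454 Proliferative ECs (39.07%) differed only in their last base from another barcode of the same replicate, as did 35.24% of all EC barcodes, and 1 barcode recurred in another replicate. In a second column of cell names, the 613 cells of eNOS+/+ replicate 2 were listed under the name of eNOS+/+ replicate 1, and the replicate column was used.

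The smallest library, eNOS-/- replicate 3, stood apart. Its 35 cells carried 306.9 CPM of mural cell genes against 4.8 to 32.1 CPM in the other 5 replicates, and 21 of these UMIs were Rgs5, a pericyte gene. The other 7 genes of the list were at or near 0 in it, with 2 UMIs of Acta2, 1 of Kcnj8 and 0 of Pdgfrb, Cspg4, Tagln, Vtn and Higd1b. The same list summed to 238.4 CPM in the Tip ECs and 4226.7 CPM in the Structural ECs of this replicate. Results that rest on this library are given with and without it below, and the part of mural transcripts in them was not tested.

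Nos3, the gene of eNOS, was at 19.3, 36 and 19.7 CPM in eNOS+/+ and 25.4, 18.6 and 38.4 CPM in eNOS-/- Proliferative ECs, and rested on 48 UMIs in all. The genotypes overlapped. The sources used here do not say which part of the gene the allele lacks, so a count of transcript ends does not check the labels, and the genotypes are those of the labels.

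The subtype label was checked against its markers. Top2a, the topoisomerase that untangles sister chromosomes, stood at 1169.2, 823.2 and 820.3 CPM in eNOS+/+ and 851.1, 839.8 and 498.8 CPM in eNOS-/- Proliferative ECs. It was at most 48.1 CPM in any replicate of Tip ECs and at most 209.6 CPM in any replicate of Structural ECs. No replicate of Proliferative ECs came down to either range. Mki67, the gene of the proliferation antigen Ki-67, had a mean of 573.7 ± 231.7 CPM (SD, n = 6) in Proliferative ECs, 19.1 ± 10.7 CPM in Tip ECs and 131.3 ± 59.9 CPM in Structural ECs. Its lowest Proliferative EC sum, 204.6 CPM in eNOS-/- replicate 3, lay below the highest Structural EC sum, 232.1 CPM in eNOS+/+ replicate 1. Pecam1, which encodes CD31, had 1126.1 ± 128.6 CPM in Proliferative ECs, which overlapped the 953 to 1416.7 CPM of Structural ECs and lay below the Tip EC mean of 1740.6 ± 311.8 CPM.

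By cells, Top2a had at least 1 UMI in 48.19% of the dividing ECs, 3.78% of Tip ECs, 6.66% of Structural ECs and 1.86% of rods, whose median depth was 361 UMIs. Rods are photoreceptors that no longer divide and were used as the level of free RNA. When cells were thinned to 500 UMIs apiece, with 807 of the 1162 Proliferative ECs kept and 355 shallower ones left out, the Top2a shares were 30.86%, 1.83%, 3.95% and 2.38%. The share in Tip ECs was thus not above that in rods. The rod share rested on 421 of 1508 rods, with none from eNOS+/+ replicate 2 or eNOS-/- replicate 3, and the Tip EC share on 1091 of 1428 cells. Genes listed for other cells had UMIs at a low level. Whether these came from other cells or from the ECs themselves was not tested. The rod list summed to 383.7 to 583.7 CPM in Proliferative ECs with all 10 genes detected, led by Gnb1 (713 UMIs), Sag (95) and Pde6g (51). The Muller glia list summed to 281.4 to 553.3 CPM, led by Glul (692 UMIs) and Apoe (147). Rlbp1 and Aqp4 of Muller glia, Cspg4 of pericytes and Cd79a and Ms4a1 of B cells had no UMI in Proliferative ECs. Nor had Alas2 of red cell precursors. A UMI was found for 5 of 7 Muller glia, 7 of 8 mural, 8 of 8 microglia, 5 of 10 B cell and 4 of 5 erythroid genes. Erythroid genes summed to 14.5 to 126.2 CPM in Proliferative ECs and reached 22522 CPM in 1 replicate of Structural ECs.

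The annotation was made by clustering on the same UMIs, so the levels that follow describe how Proliferative ECs differ from the other ECs and carry no test. Of the 19593 genes with a UMI in ECs, 1041 (5.31%) were above Tip ECs in 6 of 6 replicates and 660 (3.37%) above Structural ECs in 6 of 6. Of the 87 genes of the 4 mitotic lists, the counts were 73 (83.9%) and 67 (77%). Of the 60 genes of replication and nucleotide synthesis they were 40 (66.7%) and 36 (60%). No gene of these lists was below either subtype in all replicates.

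The widest gap was at the kinetochore, the protein complex that ties a chromosome to spindle fibres. Its 25 genes summed to 2802.3, 2271.6 and 2228.2 CPM in eNOS+/+ and 2504, 2740.9 and 1611.4 CPM in eNOS-/- Proliferative ECs. Tip ECs had 129 to 378.7 CPM and Structural ECs 361.5 to 945.8 CPM, so that neither overlapped Proliferative ECs. Within a replicate the median ratio was 9.19 to Tip ECs and 4.56 to Structural ECs. Cenpa, the histone that marks the centromere, averaged 176.2 ± 41.4 CPM in Proliferative ECs, and Cenpe, a motor that moves chromosomes to the spindle equator, averaged 315.5 ± 121.8 CPM (SD, n = 6).

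The mitotic kinases, checkpoint and anaphase-promoting genes followed, with median ratios of 8.79 to Tip ECs and 4.21 to Structural ECs. Birc5, the survivin subunit of the chromosomal passenger complex, was at 329.5 ± 63.5 CPM in Proliferative ECs, 16.5 ± 15.3 CPM in Tip ECs and 63.8 ± 32.3 CPM in Structural ECs. Ube2c, the ubiquitin-conjugating enzyme of the anaphase-promoting complex, was at 291.9 ± 99 CPM, 12.8 ± 12.1 CPM and 56.5 ± 33.3 CPM. The ratios of the chromosome condensation list were 7.18 and 4.24, and those of the spindle list 5.86 and 3.64. Hmgb2, a chromatin protein that binds bent DNA, contributed 1389.2 ± 290.6 CPM to the first list, and Stmn1, which destabilises microtubules, 798.1 ± 166.9 CPM to the second. In each of these 4 lists the smallest ratio to either subtype was that of eNOS-/- replicate 3, from 2.11 for the kinetochore list against Structural ECs to 5.01 for condensation against Tip ECs.

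DNA replication genes were raised less far. Their 43 members summed to 3108.2 to 4155.2 CPM in Proliferative ECs, 806.5 to 1100.4 CPM in Tip ECs and 1283.6 to 1517.3 CPM in Structural ECs, with median ratios of 4.34 and 2.61. Pcna, the sliding clamp of the replication fork, ranged from 233.9 to 621.8 CPM in Proliferative ECs, 55.3 to 153.7 CPM in Tip ECs and 81 to 179.7 CPM in Structural ECs. Nucleotide synthesis genes had ratios of 3.05 and 2.29. Among them Tyms, which makes thymidylate, stood at 205.4 ± 54.3 CPM against 10.8 ± 9.1 CPM in Tip ECs and 41.7 ± 21.6 CPM in Structural ECs. Histone variants and their chaperones were at 2.02 and 1.6 times, with 11 of 12 genes above each subtype in every replicate. The replication-dependent histone genes, most of whose transcripts lack the poly(A) tail that Drop-seq beads capture, were at 2.52 and 2.2 times.

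**Figure D1:**
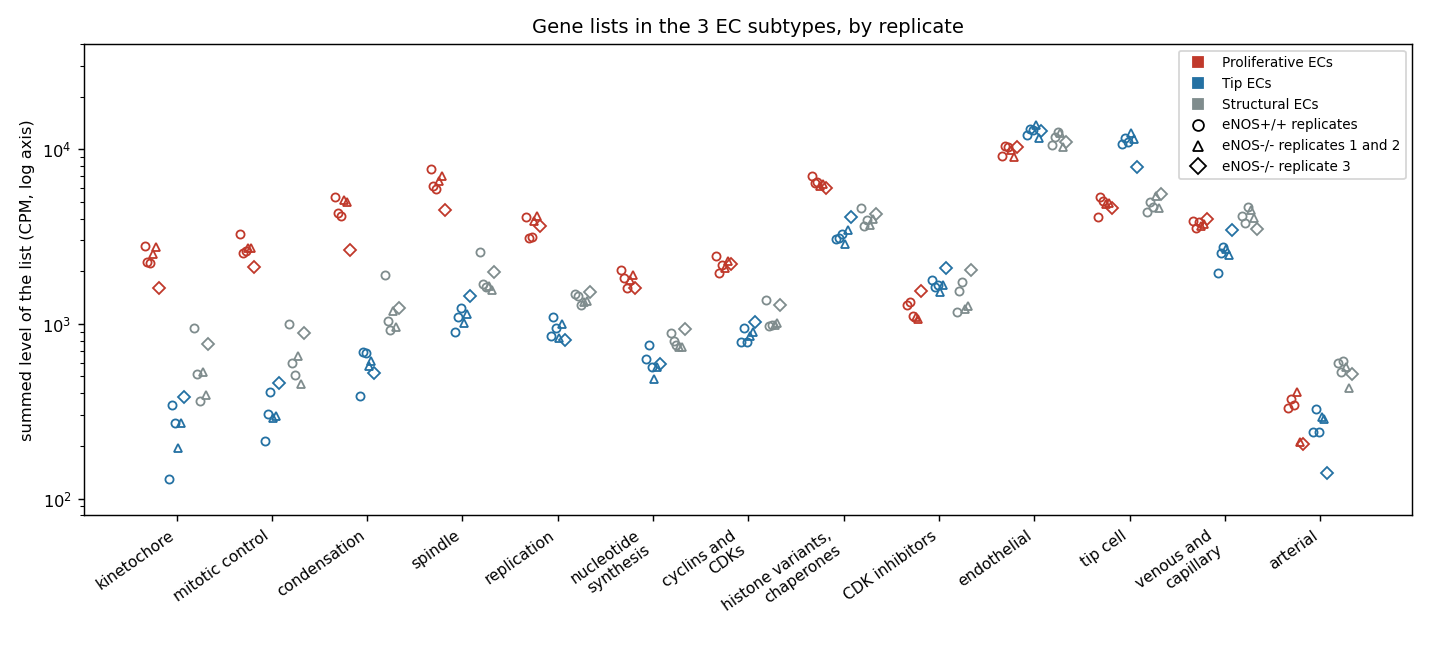
Summed level of 13 gene lists (CPM, log axis) in Proliferative (red), Tip (blue) and Structural ECs (grey), 1 point for each of the 6 replicates, with eNOS+/+ as circles, eNOS-/- replicates 1 and 2 as triangles and eNOS-/- replicate 3 as diamonds. In the 4 mitotic and 2 replication lists and the cyclins all points of Proliferative ECs lie above those of both other subtypes, and in the tip cell list they lie among those of Structural ECs.

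The cyclins and their partner kinases did not move as a block. Ccnb1, cyclin B1, was at 111.1, 117 and 74.9 CPM in eNOS+/+ and 79.3, 108.1 and 25.6 CPM in eNOS-/- Proliferative ECs, and no other EC sum passed 16.2 CPM. Ccna2, cyclin A2, averaged 125.9 ± 36 CPM in Proliferative ECs against 5.6 ± 6.6 CPM in Tip ECs and 21.4 ± 13.6 CPM in Structural ECs. Ccne2, cyclin E2, averaged 100.1 ± 27.7 CPM against 5.5 ± 4.2 CPM and 19.9 ± 10.1 CPM. Of the D cyclins, which respond to growth factors, Ccnd1 was lower in Proliferative ECs (118.3 to 263.6 CPM) than in Tip ECs (227.2 to 373.9 CPM) in each of the 6 replicates, and its level overlapped that of Structural ECs (97.2 to 237.9 CPM). Ccnd2 was at 151.3 ± 50.7 CPM in Proliferative ECs and 295.4 ± 38.6 CPM in Structural ECs. Ccnd3 was at 36.3 ± 26.5 CPM in Proliferative ECs, 15.3 ± 11.7 CPM in Tip ECs and 28.5 ± 17.3 CPM in Structural ECs, within the spread.

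Genes that hold the cycle back lay below Tip ECs, with a median ratio of 0.72 to Tip ECs and 0.85 to Structural ECs. The main contributor was Cdkn1a, the p21 inhibitor of cyclin-dependent kinases, at 377 ± 169 CPM in Proliferative ECs, 826.7 ± 118.6 CPM in Tip ECs and 318.4 ± 85.2 CPM in Structural ECs. Its level of 703.4 CPM in eNOS-/- replicate 3 was the highest of the 6 Proliferative EC sums, the other 5 lying between 224.4 and 396.2 CPM. Cdkn1b, the p27 inhibitor, averaged 145.2 ± 46.2 CPM in Proliferative ECs and 154.5 ± 25.2 CPM in Tip ECs, within the spread of either.

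A ranking by the smallest ratio over the 6 replicates, each time against the higher of the other subtypes and with 1 CPM added, gave the genes that led Proliferative ECs most evenly. Of 2092 genes of at least 100 CPM, 252 were above both subtypes in every replicate and 52 at least 2-fold above. The first 20, in order of their smallest ratio, were Kif11, Slfn9, Kif15, Diaph3, Cdc20, Hist1h2ap, Incenp, Tacc3, Knl1, Cdk1, Tk1, Pclaf, Tyms, Bub1, Top2a, Ccna2, Kif23, Clspn, Spc25 and Hmmr. That ratio was 5.55 for Kif11 and 2.55 for Hmmr, and Pbk (2.54) and Knstrn (2.52) came next. Of the 20, 17 were in a cell cycle or histone list, and the others were Slfn9, Diaph3, a formin that nucleates actin, and Pclaf, a partner of the Pcna clamp.

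Kif11, the kinesin that pushes spindle poles apart, stood at 231.9, 117 and 98.6 CPM in eNOS+/+ and 245.3, 169 and 153.5 CPM in eNOS-/- Proliferative ECs. Tip ECs reached 21 CPM and Structural ECs 38.4 CPM. Cdk1, the kinase that drives entry into mitosis, averaged 252.9 ± 60.3 CPM against 30.6 ± 13.2 CPM and 54.8 ± 24.3 CPM. Cdc20, the activator of the anaphase-promoting complex, averaged 216.7 ± 70.8 CPM against 11.2 ± 4.3 CPM and 31.6 ± 25.3 CPM. The transcripts were still sparse per cell, as Kif11 had a UMI in 20.14% of Proliferative ECs and 0.2% of rods, and Cdk1 in 24.61% and 0.4%.

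**Figure D2:**
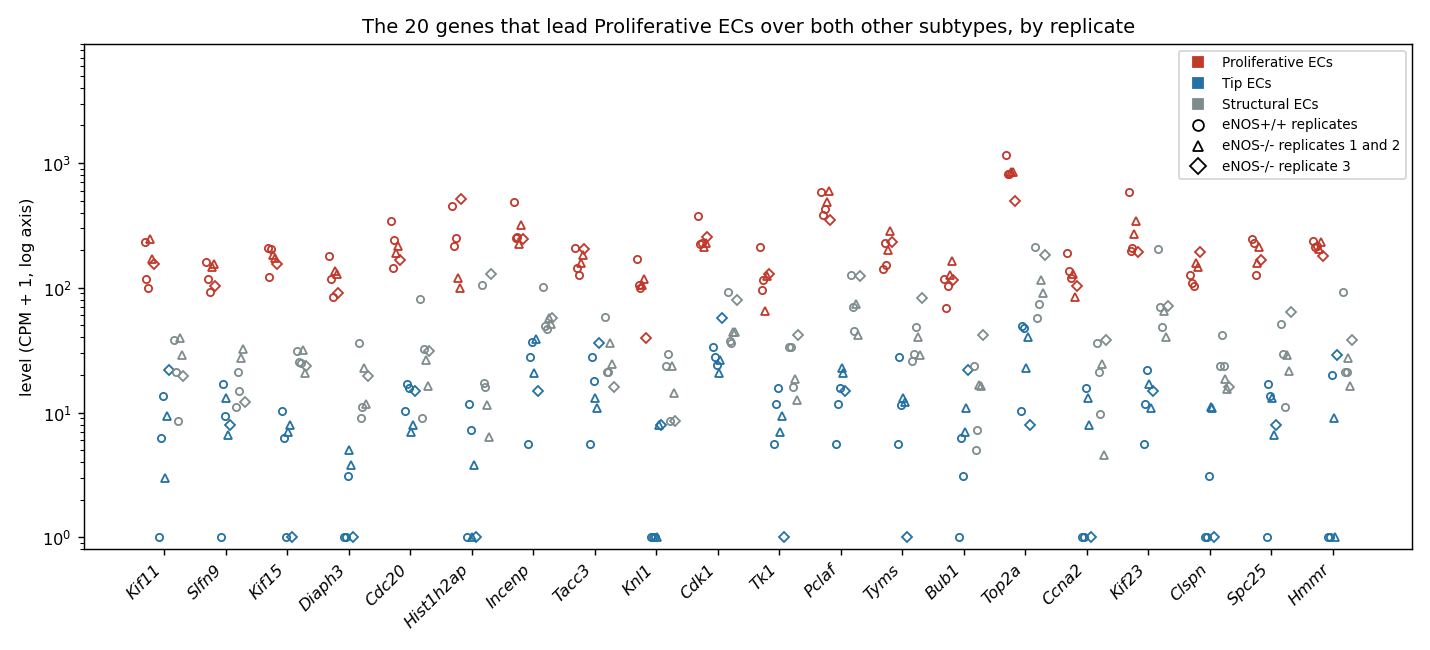
Level (CPM + 1, log axis) of the 20 leading genes in the 3 EC subtypes, 1 point per replicate with colours and symbols by subtype and genotype. The points of Proliferative ECs lie above those of Tip and Structural ECs for each gene within a replicate, and many Tip EC points lie at 0 CPM.

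Promoters of late cell cycle genes are known to carry a cell cycle genes homology region (CHR, letters TTTGAA), bound by the DREAM and MuvB complexes, often downstream of CCAAT boxes, which NF-Y binds. Promoters of 17 of the 20 leading genes were in RefSeq (GRCm38.p6). In the 100 bases before the transcription start, TTTGAA on either strand was found in 5 of the 17, in 6.8% of 27025 promoters of all genes and in 4% of 1634 promoters of genes of at least 100 CPM in Proliferative ECs. CCAAT on either strand was found in 11 of the 17, in 21.6% of all promoters and in 28.5% of the second group. A window of 250 bases gave a smaller contrast, with the same 5 and 11 of the 17. There TTTGAA was in 18.3% of all promoters and 12.6% of the second group, and CCAAT in 37.5% and 41.6%. Matches of the 2 motifs can overlap by 1 base at most. The 5 leading promoters with TTTGAA are shown 5′ to 3′ along the gene's strand, with both motifs in capitals (TTCAAA and ATTGG are their reverse complements). They lay at chr19:37376282-37376381 (Kif11, plus strand), chr9:122950981-122951080 (Kif15, plus strand), chr4:118437344-118437443 (Cdc20, minus strand), chr10:69352913-69353012 (Cdk1, minus strand) and chr11:99024190-99024289 (Top2a, minus strand).
Kif11: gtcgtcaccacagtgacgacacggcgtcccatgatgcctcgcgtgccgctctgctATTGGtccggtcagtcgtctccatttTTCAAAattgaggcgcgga
Kif15: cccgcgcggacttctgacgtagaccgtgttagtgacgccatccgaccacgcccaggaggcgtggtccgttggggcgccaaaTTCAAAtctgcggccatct
Cdc20: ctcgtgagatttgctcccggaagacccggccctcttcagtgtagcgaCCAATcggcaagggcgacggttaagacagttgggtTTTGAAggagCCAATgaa
Cdk1: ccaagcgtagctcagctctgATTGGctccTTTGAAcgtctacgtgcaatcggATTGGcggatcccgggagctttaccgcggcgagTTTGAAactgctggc
Top2a: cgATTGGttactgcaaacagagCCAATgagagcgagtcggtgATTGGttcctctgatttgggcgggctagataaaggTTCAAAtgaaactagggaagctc
In these 5 windows the TTTGAA nearest to the start began 15 to 23 bases before it. In Cdc20, Cdk1, Kif11 and Top2a a CCAAT box lay upstream of it, and Cdc20 had another between it and the start. A match of letters is a description of the window and was not measured as a binding site.

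The annotation also gives each cell a phase called from gene scores. Of the Proliferative ECs, 28 (2.41%) were called G1, 356 (30.64%) S and 778 (66.95%) G2M. Rods, which do not divide, were called S in 21.22% and G2M in 21.35%, so a phase call alone does not mark a cycling cell. The G2M share was 6.3% in Tip ECs and 18.2% in Structural ECs, not above that of rods. By replicate, the G2M share of Proliferative ECs was 80.34%, 63.83% and 68.21% in eNOS+/+ and 63.46%, 66.75% and 62.86% in eNOS-/-. The 2 groups overlapped.

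Within Proliferative ECs the calls went with different transcripts, some of which the scores themselves may use. For a gene that a score uses, the direction follows from the call. Pcna averaged 711.3 ± 281 CPM in cells called S and 297.5 ± 139.4 CPM in cells called G2M, higher in S in 6 of 6 replicates. Ccne2 was at 186.9 ± 85.4 CPM in cells called S and 65.4 ± 5.3 CPM in cells called G2M, higher in S in 5 of 6. Ccnd1 was at 262.7 ± 88 and 147.3 ± 53.6 CPM, higher in S in 6 of 6.

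In the other direction, Ccnb2 was at 79.6 ± 41.7 CPM in cells called S and 267 ± 58.6 CPM in cells called G2M, and Cenpa at 43.7 ± 32.1 and 234.9 ± 35.6 CPM, both higher in G2M in 6 of 6. Top2a differed less, with 544.6 ± 98 CPM in cells called S and 958.6 ± 273.9 CPM in cells called G2M. Its mean in cells called S was still above every Tip or Structural EC sum. The endothelial list summed to 9458.5 ± 628.9 CPM in cells called S and 10108.7 ± 985.8 CPM in cells called G2M, higher in G2M in 5 of 6. Ptprb, a phosphatase of endothelial junctions, was at 647.8 ± 128.5 and 844.6 ± 89.2 CPM, and it, Tie1 and Pecam1 were higher in G2M in 6 of 6. Other members went the other way. Esam was at 596 ± 74.3 and 522.2 ± 101.7 CPM, higher in S in 5 of 6, and Fli1 was higher in S in 4 of 6. The share of all genes with such a direction was not counted, and cells called S numbered only 12 in eNOS-/- replicate 3. Cdh5 was at 620.7 ± 71.4 and 608.1 ± 26.6 CPM, higher in G2M in 3 of 6.

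**Figure D3:**
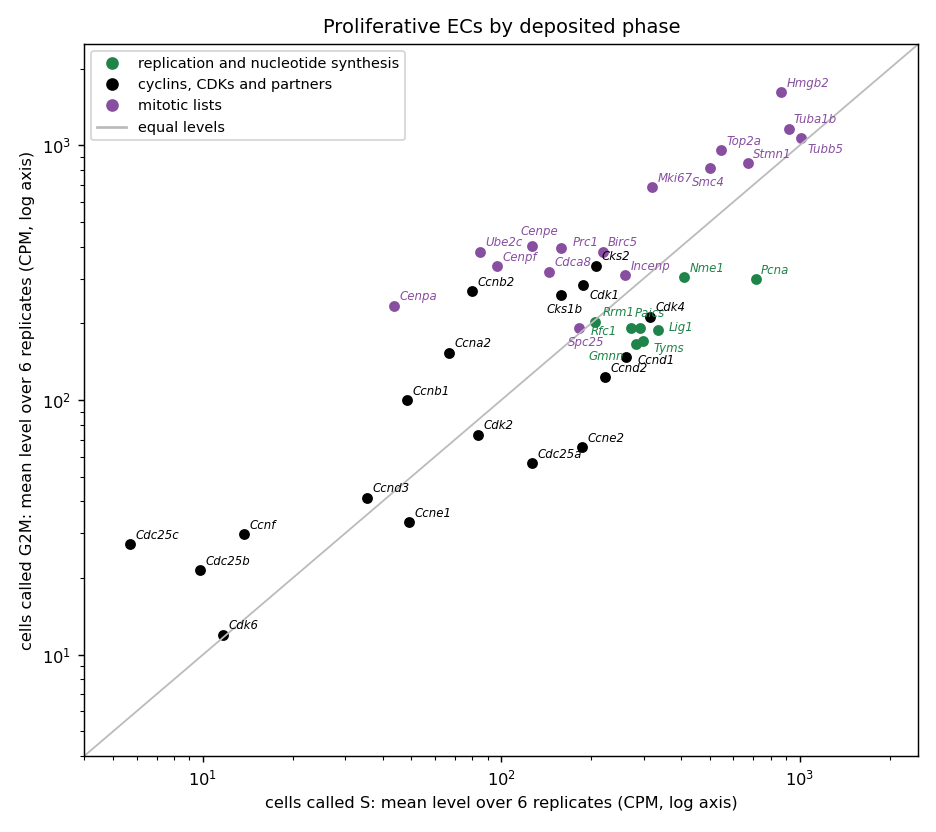
Mean level over the 6 replicates (CPM, log axes) of named cell cycle genes in Proliferative ECs called S (horizontal) and G2M (vertical), with replication genes in green, cyclins, kinases and their partners in black, mitotic genes in purple and a line of equal levels. Pcna, Ccne2 and Ccnd1 lie below the line and Cenpa, Ube2c and Ccnb2 above it, while Spc25 and Rrm1 lie near it.

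Most Proliferative ECs carried UMIs of both the mitotic and the replication lists. At 500 UMIs per cell, 96.65% of Proliferative ECs had at least 2 UMIs of the mitotic lists and 67.91% at least 2 of the replication and nucleotide lists. The same limits were met by 37.29% and 18.29% of rods, 30.52% and 16.41% of Tip ECs and 41.11% and 25.38% of Structural ECs. Of the 807 Proliferative ECs, 529 (65.55%) met both, 251 (31.1%) the mitotic limit alone, 19 (2.35%) the replication limit alone and 8 (0.99%) neither. Both limits were met by 8.79% of rods, 4.67% of Tip ECs and 12.33% of Structural ECs. The mitotic lists hold genes that differ little by phase, such as Tubb5 (1006.8 ± 179.3 CPM in cells called S, 1067.2 ± 211 CPM in G2M). Meeting both limits therefore does not show that a cell runs both programmes. Without thinning, 96.39% and 77.62% of Proliferative ECs met the mitotic and the replication limit.

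Proliferative ECs kept the endothelial programme at a somewhat lower share of their UMIs. The 18 endothelial genes summed to 8993.1 to 10453.7 CPM, and in 6 of 6 replicates they were below Tip ECs (11640.7 to 13674.1 CPM, median ratio 0.79) and below Structural ECs (10278.8 to 12480.4 CPM, median ratio 0.87). Of the 18, 7 were below Tip ECs in every replicate and 5 below Structural ECs, as were 4.21% and 3.42% of all genes. Cdh5, the VE-cadherin of endothelial junctions, was almost constant over the 6 sums of Proliferative ECs, from 588.3 to 620.2 CPM. Flt1, a VEGF receptor that traps the ligand, was at 1062.9 ± 133.2 CPM in Proliferative ECs and 1903.5 ± 361.2 CPM in Tip ECs. Kdr, the main signalling receptor for VEGF, was at 858.9 ± 111.3 CPM and 979 ± 163.9 CPM, which overlapped.

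The tip cell genes were near the level of Structural ECs. Their 17 members summed to 4077.8 to 5321.3 CPM in Proliferative ECs, with a median ratio of 0.44 to Tip ECs and 1 to Structural ECs, and 15 of the 17 were below Tip ECs in every replicate. Apln, the apelin peptide, stood at 260.9, 206.9 and 185.4 CPM in eNOS+/+ and 230.4, 197.7 and 268.6 CPM in eNOS-/- Proliferative ECs, and was above Structural ECs (60.7 to 254.1 CPM) in each replicate and far below Tip ECs (736.5 to 1037 CPM). Angpt2, a ligand that loosens vessels, was at 0 to 79.4 CPM in Proliferative ECs and 203.4 to 628.8 CPM in Tip ECs.

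Arterial genes were at 0.56 times the level of Structural ECs and below them in 6 of 6 replicates. Gja4, the arterial connexin 37, ranged from 25.6 to 140.6 CPM in Proliferative ECs, 6 to 29.3 CPM in Tip ECs and 109.1 to 220.4 CPM in Structural ECs. Venous and capillary genes were at 1.39 times Tip ECs and 0.93 times Structural ECs. Within them Slc38a5, an amino acid transporter of retinal capillaries, was at 455.2 ± 153.7 CPM in Proliferative ECs, 180.4 ± 79.6 CPM in Tip ECs and 291.7 ± 68.2 CPM in Structural ECs. Of the 11 genes, 2 were above Structural ECs in every replicate and 2 below, as were 3.37% and 3.42% of all genes. The lower ones were Slc2a1 (mean 848.5 against 1251.7 CPM in Structural ECs) and Abcb1a (371.4 against 542 CPM). Ribosomal protein genes took 1.14 times the share of Tip ECs, in 6 of 6 replicates. Against Structural ECs their median ratio was 0.997, and they were above in 3 of 6. Nucleolar and growth genes such as Ncl and Npm1 took 1.52 times the share of Tip ECs and 1.535 times that of Structural ECs.

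The main comparison of the study is between genotypes. Proliferative ECs made up 23.45%, 26.6% and 13.83% of eNOS+/+ ECs and 24.96%, 17.92% and 12.15% of eNOS-/- ECs. The groups overlapped. The mean was 21.3% ± 6.66 (SD, n = 3) in eNOS+/+ and 18.3% ± 6.41 (SD, n = 3) in eNOS-/-, a difference of -2.95 percentage points (two-sided exact permutation test, p = 0.6, where 0.1 is the smallest p that 3 against 3 allows). Without eNOS-/- replicate 3 the difference was 0.146 percentage points. Counting each family of barcodes that differ in the last base as 1 cell, a choice made after the data had been seen, gave -1.82 percentage points (exact p = 0.8). The median UMIs per Proliferative EC were 1041, 1068 and 989 in eNOS+/+ and 1415, 556 and 2120 in eNOS-/-, so that the eNOS-/- replicates lay on both sides of the eNOS+/+ replicates (exact p = 0.7).

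The balance between the mitotic and the replication lists was also read by replicate, as a description with no test. Mitotic UMIs were 75.8%, 75.5% and 75.9% of the UMIs of both groups of lists in eNOS+/+ and 74.9%, 74.2% and 67.5% in eNOS-/- Proliferative ECs. The groups did not overlap, and 10.8% of all tested genes did not overlap between the genotypes either. Without eNOS-/- replicate 3 the difference was -1.19 percentage points in place of -3.53. With cells thinned to 500 UMIs the eNOS+/+ replicates spread from 73.6% to 77.6% and the groups overlapped, eNOS-/- replicate 3 remaining lowest at 65.7% with 24 cells. In this replicate the condensation list was at 2634.5 CPM, against 4156.6 to 5338.8 CPM in the other 5, and its mural transcripts were those given above.

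**Figure D4:**
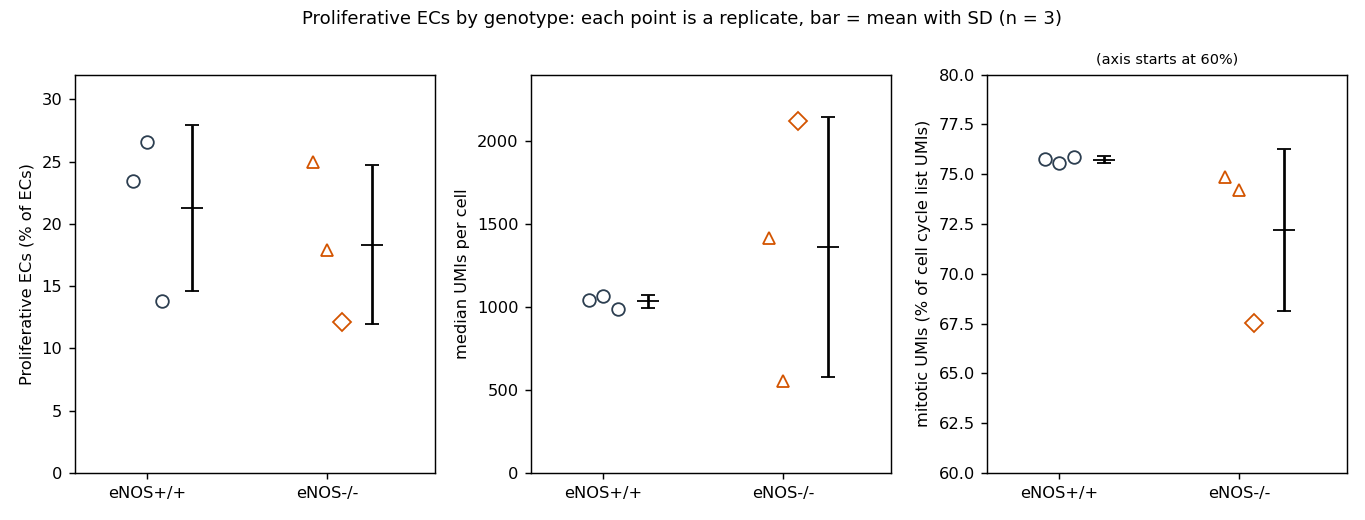
Share of Proliferative ECs among ECs (%), median UMIs per Proliferative EC and mitotic share of the cell cycle list UMIs (%, axis from 60%), 1 point per replicate, with the mean and SD (n = 3) of each genotype. The genotypes overlap in the first and second measure, and eNOS-/- replicate 3 (diamond) lies apart in the third.

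Gene by gene, edgeR's quasi-likelihood test on the 6 sums found 1 of 4607 genes (0.0217%) past an adjusted p of 0.05 with Benjamini-Hochberg adjustment. In edgeR 294 genes (6.38%) had an unadjusted p under 0.05, 114 higher and 180 lower in eNOS-/-. DESeq2 also called 1 gene, with 131 at an unadjusted p under 0.05. The gene was AI506816, an uncharacterised RNA with no known coding sequence (chromosome 5 of GRCm38, 23698296 to 23712667, minus strand). It was counted 39, 45 and 30 times in eNOS+/+ and 20, 21 and 0 times in eNOS-/- Proliferative ECs, or 188.4, 202.4 and 118.3 CPM against 29.9, 35.5 and 0 CPM. Each eNOS-/- replicate was below each eNOS+/+ replicate, and in eNOS-/- replicate 3 a count of 0 allows up to 38.4 CPM. The log2 fold change was -2.48 (SE 0.39, adjusted p = 0.00597). By cells, it was found in 24.79%, 23.4% and 13.91% of the eNOS+/+ and in 5.77%, 4.68% and 0% of the eNOS-/- Proliferative ECs. Nos3 lies near AI506816 on the same chromosome, at 24364810 to 24384474. Whether DNA linked to the targeted allele plays a part in the difference was not tested.

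AI506816 was not particular to the dividing cells. It fell by 3.30 on the log2 scale in Tip ECs (adjusted p = 0.000771) and by 2.81 in Structural ECs (adjusted p = 0.0344, the same edgeR test in each subtype). The test of the difference gave 0.89 (SE 0.58) against Tip ECs and 0.45 (SE 0.51) against Structural ECs on the log2 scale, with an adjusted p of 1 in edgeR for each. Its call in Proliferative ECs was lost when eNOS-/- replicate 1, eNOS+/+ replicate 1 or eNOS+/+ replicate 2 was left out (adjusted p = 0.0891, 0.0682 and 0.298 in edgeR), with log2 fold changes from -2.52 to -2.36.

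The markers of the subtype were not called, Top2a having a log2 fold change of -0.30 (SE 0.24, adjusted p = 0.912 in edgeR), Mki67 0.19 (SE 0.31, adjusted p = 0.973) and Pecam1 0.18 (SE 0.22, adjusted p = 0.945).

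No list of cell cycle or endothelial genes had a called member. Of the 87 mitotic genes 73 were tested, 34 higher and 39 lower in eNOS-/-, with a median log2 fold change of -0.02 beside 0.015 over all 4607 genes. Of the 60 replication and nucleotide genes 42 were tested, 25 higher and 17 lower, with a median of 0.07. Cyclins and their kinases had 6 higher and 6 lower. The 18 endothelial genes had 9 higher and 9 lower, between -0.37 and 0.40. The balance of the mitotic genes depended on the replicates. Without eNOS-/- replicate 3, 45 were higher and 30 lower, with a median log2 fold change of 0.099. Over the left-out replicates that median ran from -0.145 (without eNOS-/- replicate 2) to 0.117 (without eNOS+/+ replicate 1).

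Replicates of the 2 genotypes did not overlap in 6 of the 73 mitotic genes (3 higher and 3 lower in eNOS-/-). The same held for 5 of the 42 replication and nucleotide genes (3 higher and 2 lower). It also held for 1 of the 12 cyclins and kinases and 1 of the 6 tested inhibitors, both higher. Among all genes 10.8% did not overlap, 5.36% higher and 5.43% lower. None of these cell cycle genes was called. The higher genes included Gmnn, Ccnd1 and the inhibitor Cdkn1b. Gmnn, the inhibitor that stops DNA from being licensed again, stood at 149.8, 125.9 and 169.6 CPM in eNOS+/+ and 219.9, 270.4 and 294.1 CPM in eNOS-/- (log2 fold change 0.78, SE 0.26, adjusted p = 0.512 in edgeR). Cdkn1b stood at 125.6, 76.5 and 118.3 CPM against 166, 192.6 and 191.8 CPM (0.77, SE 0.29, adjusted p = 0.627). Ccnd1 stood at 135.3, 184.4 and 118.3 CPM against 230.4, 263.6 and 191.8 CPM (0.71, SE 0.27, adjusted p = 0.627). Among the lower genes, Pttg1, the gene of securin, stood at 72.5, 63 and 59.2 CPM against 41.9, 45.6 and 38.4 CPM (-0.57, SE 0.38, adjusted p = 0.882). Cenpa stood at 217.4, 179.9 and 213 CPM against 172, 172.4 and 102.3 CPM (-0.33, SE 0.26, adjusted p = 0.912).

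The genes of smallest p after AI506816 were Pnrc1, a nuclear receptor coactivator, and Selenop, the plasma carrier of selenium. Pnrc1 was at 111.1, 148.4 and 110.4 CPM in eNOS+/+ and 20.9, 25.3 and 76.7 CPM in eNOS-/- Proliferative ECs, with no overlap (log2 fold change -2.10, SE 0.41, adjusted p = 0.0643 in edgeR). Selenop was at 29, 45 and 15.8 CPM against 98.7, 174 and 38.4 CPM, the last within the eNOS+/+ range (2.03, SE 0.45, adjusted p = 0.247). Apod, a lipid carrier, was at 91.8, 121.4 and 213 CPM against 242.3, 368.4 and 601.1 CPM, with no overlap (1.37, SE 0.33, adjusted p = 0.27).

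Aga, Pitpnb, Abce1, Il6st and Snhg1 were also higher in each eNOS-/- replicate than in any eNOS+/+ replicate, with log2 fold changes from 1.03 to 1.83 and adjusted p of 0.416 to 0.474 in edgeR. Nuf2, a kinetochore subunit, was at 96.6, 85.5 and 90.7 CPM in eNOS+/+ and 166, 261.9 and 76.7 CPM in eNOS-/-, so that eNOS-/- replicate 3 lay below the eNOS+/+ replicates (1.06, SE 0.33, adjusted p = 0.445). Among the genes lower in eNOS-/-, Smap1, Ptms, Fbl, Ube2j2, Bc1 and Lamp1 had log2 fold changes from -2.07 to -1.14 and adjusted p of 0.251 to 0.416. Of these, Smap1, Ptms, Fbl and Ube2j2 did not overlap between the genotypes either, while Bc1 and Lamp1 did. Over all genes, 5.36% did not overlap and were higher, and 5.43% did not overlap and were lower. Genes taken by their smallest p tend to lie apart, so their lack of overlap is no further support.

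**Figure D5:**
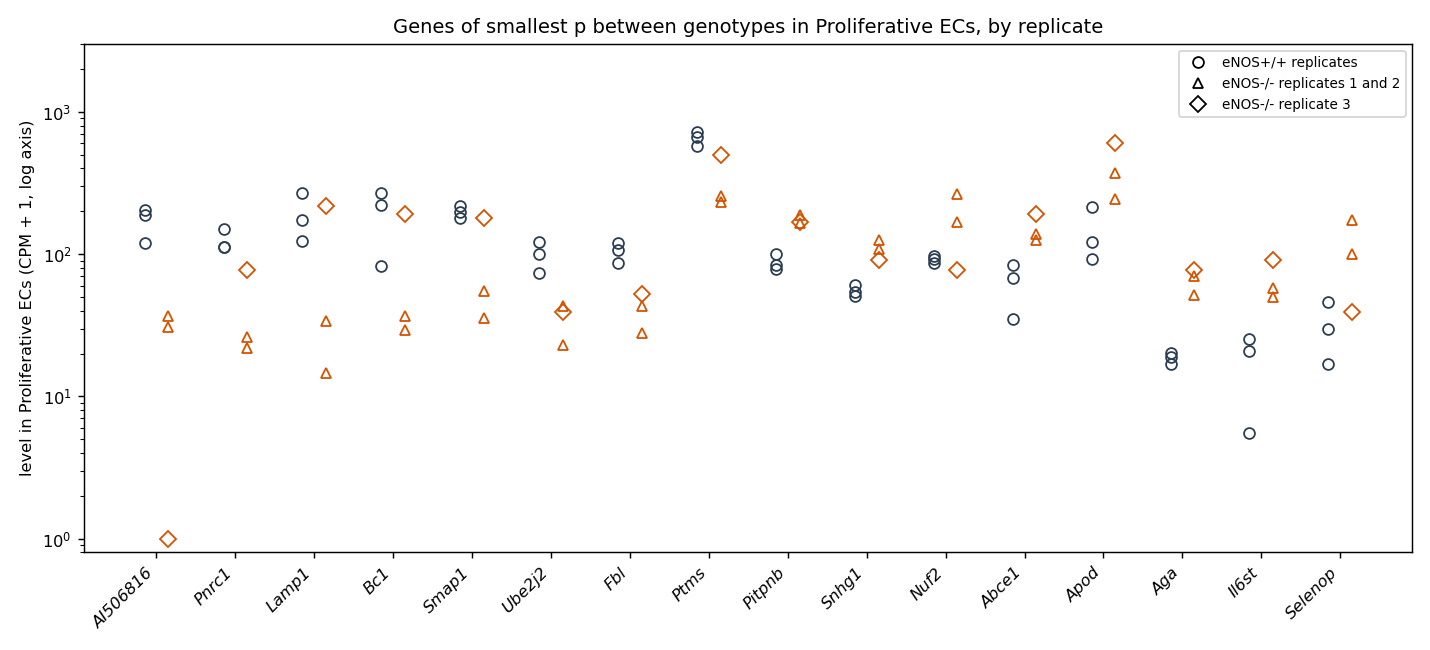
Level in Proliferative ECs (CPM + 1, log axis) of the 16 genes of smallest p between genotypes, 8 lower and 8 higher in eNOS-/-, with eNOS+/+ replicates as dark circles, eNOS-/- replicates 1 and 2 as triangles and eNOS-/- replicate 3 as a diamond. In Lamp1, Bc1, Smap1, Nuf2 and Selenop the diamond lies with or beyond the circles rather than with the triangles.

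The count of called genes rested on eNOS-/- replicate 3. Without it, 73 of 5237 genes (1.39%) were called by the same edgeR test, 5 higher and 68 lower in eNOS-/-. Lamp1, a lysosomal membrane protein, was at 173.9, 269.9 and 122.3 CPM in eNOS+/+ and 32.9, 13.5 and 217.4 CPM in eNOS-/- Proliferative ECs. The level of the third eNOS-/- replicate lay inside the eNOS+/+ range, and without it the log2 fold change was -2.96 (SE 0.38, adjusted p = 7.46e-08 in edgeR) in place of -2.07. Klf2, a transcription factor induced by shear stress, was at 391.3, 823.2 and 658.6 CPM against 188.5, 177.4 and 677.8 CPM, with a log2 fold change of -1.76 (adjusted p = 3.8e-06) without that replicate and -1.12 (adjusted p = 0.512) with it.

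For 49 of the 68 lower genes the level of eNOS-/- replicate 3 was within or above the eNOS+/+ range in Proliferative ECs, and for 62 it was above both other eNOS-/- replicates. The genes were chosen with this replicate left out, so these counts follow in part from the choice. In the same libraries it was above both other eNOS-/- replicates for 63 of these genes in Tip ECs and for 65 in Structural ECs, which is no independent check. The 68 genes were 1.3% of all genes tested. They held 4 of the 16 immediate early and heat shock genes (Klf2, Ier2, Junb and Jund), 1 of 75 tested mitotic genes, Ube2s, and also Btg1 of the inhibitor list, the histone gene Hist1h2ap, Fbl of the nucleolar list, the ribosomal protein genes Rpl35 and Rps2, mt-Co2 and Apoe. Hspb1, a small heat shock protein gene outside the list of 16, was also among the 68 (log2 fold change -2.12, adjusted p = 0.00151 in edgeR). Nuf2 was the 1 mitotic gene among the 5 higher ones. The study's labels give no batch that would set this replicate apart.

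Genotype effects that differ between the dividing cells and the other ECs were tested in 1 fit over the 18 sums, with each library as a block. Against Tip ECs, 0 of 7019 genes were called by edgeR, with 274 (3.9%) at an unadjusted p under 0.05, and against Structural ECs 0 were called, with 229 (3.26%). DESeq2 called 0 in each, with 187 and 135 genes at an unadjusted p under 0.05. Leaving out any of the 6 replicates also gave 0. The smallest p against Tip ECs was that of Dut, which removes dUTP before it can enter DNA. It was at 169.1, 94.5 and 106.5 CPM in eNOS+/+ and 70.3, 69.3 and 140.7 CPM in eNOS-/- Proliferative ECs, and rested on 23 UMIs in Tip ECs (difference in log2 fold change 3.16, SE 0.90, adjusted p = 1 in edgeR). Snhg1, a host gene of small nucleolar RNAs, had 53.1, 49.5 and 59.2 CPM against 124.2, 108.1 and 89.5 CPM in Proliferative ECs and 46.1, 42.7 and 107.3 CPM against 57.8, 57.3 and 49.1 CPM in Tip ECs (difference in log2 fold change 1.36, SE 0.43, adjusted p = 1). Il6st, the shared receptor of the interleukin 6 family, differed by 1.78 (SE 0.62) from Tip ECs and 1.69 (SE 0.58) from Structural ECs, with an adjusted p of 1 in edgeR for each. For Top2a the approximate 95% interval of the difference from Structural ECs was -1.03 to 0.33 on the log2 scale, and for Pcna -0.51 to 0.59.

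The study asked whether loss of eNOS alters cell polarity genes. With gene set enrichment it reported polarity sets as enriched in Tip and Structural ECs of eNOS-/- mice, and as not significantly so in Proliferative ECs. In Proliferative ECs 8 of 19 polarity and junction genes passed the filter on low counts, 6 higher and 2 lower in eNOS-/-, with a median log2 fold change of 0.06 and none called. The list summed to 2082.4, 2271.6 and 2102 CPM in eNOS+/+ and 2207.8, 2438.4 and 2046.2 CPM in eNOS-/-, which overlapped. Cdc42, a small GTPase that sets up polarity, had a log2 fold change of 0.18 (SE 0.23, adjusted p = 0.956 in edgeR). Tjp1, a tight junction scaffold, had 0.02 (SE 0.24, adjusted p = 0.996). Prkci, the atypical protein kinase C of the Par complex, had 58 UMIs in all and Ctnnb1, beta-catenin, 79, and both were below the filter.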

How the data were processed

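Single cells of CD31-enriched retinal suspensions were measured by Drop-seq in 6 replicates. Reads were aligned to GRCm38 by the authors using kb-python, and they deposited UMI counts per gene and cell without normalization, for 20822 genes and 8944 cells. With Seurat 3 they called subtypes and phases, and their deposited annotation also holds each cell's percent of mitochondrial UMIs and its cell cycle scores. The smallest number of genes in a cell was 101 and the largest mitochondrial percent 9.99. All cells are annotated as singlets, and no further doublet call was made. 0 columns of sample values were left unused.

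UMIs were summed per replicate and subtype. Depth ran from 78192 to 668540 UMIs per sum of Proliferative ECs, so that 1 UMI was a larger share of a small sum. Genotypes were compared by the quasi-likelihood test of edgeR 4.0.16 after filterByExpr and TMM scaling, with p-values adjusted over all genes tested by Benjamini-Hochberg (limit 0.05). The script was tested on simulated data. DESeq2 1.42.0 was an alternative. The interaction of genotype and subtype was fitted on 18 sums with the library as a block. Approximate intervals are the estimate and its SE scaled to 95%. For shares, exact permutation tests (two-sided) were used. Nothing says whether replicates came from separate litters or days, so p-values measure the spread between these samples. Software was R 4.3.3 and Python 3.11.15 (pandas 2.3.3, scipy 1.17.1, matplotlib 3.10.9, numpy 2.4.6).

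Gene lists were written by hand, and members and lists were chosen with earlier results of these data known. Named genes are the subtype markers and Nos3, the most abundant members of each list with all members of the cyclin, tip and endothelial lists, the called genes and those of smallest p in each direction, and the 20 leading genes. Any other gene was named after its values were seen. Promoter sequences are from RefSeq. Alternatives were another scaling, no filter on low counts, cells of at least 500 UMIs, mitochondrial genes removed, a replicate block and each replicate left out.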

Additional observations from a re-analysis of the deposited data

Results flagged for a closer look

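Of 28 values compared over the 6 replicates of Proliferative ECs, 3 had 1 replicate far from the others by Dixon's test, which flags about 1 in 20 groups by chance. The mural list was at 306.9 CPM in eNOS-/- replicate 3, and the gap to the next replicate was 0.91 of the whole range. The mitotic share of the cell cycle UMIs was 67.5% in the same replicate, with a gap of 0.8 of the range. The ribosomal protein list was at 71884.8 CPM in eNOS+/+ replicate 2, below the other 5 replicates, with a gap of 0.78 of the range.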

How the results depend on the processing

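The count of genes called between genotypes in Proliferative ECs was 1 with DESeq2, with another scaling, in cells of at least 500 UMIs and without mitochondrial genes, and 10 with no filter on low counts. Leaving out each replicate gave 0 to 73 genes, with 0 when replicate 1 of either genotype or replicate 2 of eNOS+/+ was absent, and 73 without eNOS-/- replicate 3. A replicate block gave 3 (AI506816, Pnrc1 and Apod), but same-numbered replicates did not deviate together (r = 0.068, -0.041 and 0.09), so the numbers do not pair them. Of the genotype effects against Structural ECs 1 was called with no filter, and every other setting of either subtype comparison gave 0. The difference in share ran from -6.68 to 0.146 percentage points over the left-out replicates, and that in median UMIs from -47.2 to 735, each turning sign without eNOS-/- replicate 3. Changes near 0 turned sign. On the log2 scale, Cdh5 ran from -0.016 to 0.022 and Tjp1 from -0.064 to 0.104 over the left-out replicates, and Tjp1 was -0.006 in cells of at least 500 UMIs. The cause was not tested. Depth limits rare transcripts, since 1 count in the smallest sum is a large share of it.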

Other observations

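Other groups of genes were read in Proliferative ECs with no gene called. Of 82 tested ribosomal protein genes 69 were higher and 13 lower in eNOS-/-, with a median log2 fold change of 0.18 beside 0.015 over all genes. The list summed to 96861.5, 71884.8 and 99860.8 CPM in eNOS+/+ and 100136.1 to 103923.7 CPM in eNOS-/-, and without eNOS+/+ replicate 2 the median was 0.04, with 49 genes higher and 33 lower. Of 16 immediate early and heat shock genes 4 were higher and 12 lower, with a median of -0.41, which ran from -0.60 to -0.21 over the left-out replicates (the lowest without eNOS+/+ replicate 1, the highest without eNOS-/- replicate 2). Of 16 tested mitochondrial genes 3 were higher and 13 lower, with a median of -0.29, or -0.45 to -0.20 over the left-out replicates (without eNOS+/+ replicates 1 and 2). The mitochondrial list took 0.85 times the share of Tip ECs and 0.83 times that of Structural ECs, below both in 6 of 6 replicates.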
